A study of Mus musculus with 4 samples.

Results

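The cells described here carried transcripts of both Gata1 and Gata2 and lacked the transcripts that mark the 3 branches beyond them. They were chosen in mouse bone marrow profiled by droplet single-cell RNA sequencing, in which each captured transcript is counted once as a unique molecular identifier (UMI). A barcode was kept as a cell when it held at least 500 UMIs and 200 genes and at most 10% mitochondrial UMIs. A kept cell was a member when it held at least 1 UMI of Gata1 and 1 of Gata2, at most 1 UMI of Klf1, fewer than 10 UMIs of Mpo per 10,000, and none of Car1, Pf4, Ms4a2, Prss34 or Mcpt8. Members were thus chosen by the measured UMIs of these 9 genes. The rule found 92 of 16280 kept cells (0.565%), or 12.2% of the 756 cells with UMIs of both GATA factors. They are called Gata1 Gata2 cells below.

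Marrow came from mice reconstituted with Idh1-R132H cells (2 libraries) or Idh1-WT cells (2 libraries), with 1 mouse in each library. The R132H change lets the cytosolic isocitrate dehydrogenase make 2-hydroxyglutarate. Per the series' design text, tamoxifen given for 5 days recombined an EYFP reporter and a heterozygous Idh1-R132H allele, and 2 weeks later EYFP-positive lineage-negative cells were sorted and transplanted into irradiated recipients without supporting marrow. Chimeric marrow was taken 16 weeks after transplantation. Every library pooled 4000 sorted cells from each of 3 EYFP-positive gates. One took any CD45.1-positive cell, another (LSK) the lineage-negative fraction with both Sca1 and cKit, and the last (LK) the lineage-negative fraction with cKit. The Cre driver, and whether the mice of 1 group had separate donors, are not given in the sources used here, so p-values measure only the spread between these samples.

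GATA2 is the zinc-finger factor of stem and early progenitor cells, and GATA1 replaces it at shared target sites as cells commit to the erythroid, megakaryocyte, mast or eosinophil lineages. A bipotent progenitor that has both factors stands at the split between red cells and platelets in mouse marrow. There Klf1 favours the erythroid branch and Fli1 the megakaryocyte branch, while Tal1, Lmo2, Zfpm1 (FOG-1) and Gfi1b act in complexes with the GATA factors.

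The libraries held 47025425 and 53387528 UMIs (Idh1-R132H 1 and 2) and 56353466 and 40364701 UMIs (Idh1-WT 1 and 2). Gata1 Gata2 cells were somewhat deeper than the average cell, with a median of 9899 UMIs against 8243 over all kept cells, and ranged from 4271 to 20857 UMIs. Their medians by library were 10814 and 10762 UMIs in Idh1-R132H 1 and 2 and 9399 and 8177 in Idh1-WT 1 and 2, so depth was higher in both Idh1-R132H libraries. Summed over cells they gave 251805 and 223819 UMIs in Idh1-R132H 1 and 2 and 313616 and 122923 UMIs in Idh1-WT 1 and 2. Idh1-R132H 1 and Idh1-WT 1 shared 345 cell barcodes, against 23.5 expected by chance, while the other pairs of libraries shared 13 to 33. Only 2 Gata1 Gata2 cells had a barcode found in another library. In Idh1-R132H 2, 2 members carried more than 100 UMIs of the neutrophil gene S100a8, up to 1138 in 1 cell, and no member of the other libraries exceeded 14. Cells with Xist and no Y-linked transcript numbered 11 and 12 in Idh1-R132H 1 and 2 and 22 and 8 in Idh1-WT 1 and 2. Cells with a Y-linked transcript and no Xist numbered 12 and 5 in Idh1-R132H 1 and 2 and 1 and 3 in Idh1-WT 1 and 2. Cells with either mark alone were thus found in every library, in unequal mixes, but in Idh1-WT 1 the Y-linked side rested on 1 cell. The part of sex in the results below was not tested beyond repeating them on Xist-carrying cells.

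The levels of the genes that chose the cells are a description and carry no test. Gata1 (chromosome X, 7959260 to 7978071, minus strand, GRCm38) was present as a single UMI in 64 of 92 cells and as 2 or more in 28, with 3 at most. Gata2 (chromosome 6, 88193891 to 88207032, plus strand) was present as a single UMI in 38 cells and as 2 or more in 54, with 6 at most. In 28 cells each factor rested on 1 UMI. In the summed cells of each library, Gata1 stood at 127 and 121 CPM (the gene's UMIs per 10,000 UMIs, times 100) in Idh1-R132H 1 and 2 and at 153 and 163 CPM in Idh1-WT 1 and 2. Gata2 stood at 203 and 147 CPM in Idh1-R132H 1 and 2 and at 210 and 260 CPM in Idh1-WT 1 and 2. Both factors were lower in the Idh1-R132H libraries without overlap, but their levels are bounded by the rule and no call is read from them. A single Klf1 UMI was found in 15 members, and Mpo reached 11 UMIs at most.

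Because membership turns on single UMIs, it depended on depth. When cells were thinned to 5000 UMIs, 7 members were too shallow, and 34 of the other 85 still met the rule. These were 9 of 22 and 6 of 21 in Idh1-R132H 1 and 2, and 13 of 28 and 6 of 14 in Idh1-WT 1 and 2. Free RNA in the droplets also gives UMIs in cells that do not express a gene. Among 700 B-like cells (UMIs of both Cd79a and Cd79b, median 1940 to 2021 UMIs by library), 2.14% held a Gata1 UMI, 5.86% a Gata2 UMI and 0.714% both. The exclusion genes appeared more often in B-like cells, with a Pf4 UMI in 8.57%, a Car1 UMI in 7.43% and a Mcpt8 UMI in 10.1%. B-like cells were shallower than members, so these shares may be higher at the depth of members. In Mpo-high cells (defined below), which were deeper than members, the shares were 14.0%, 15.9% and 45.0%. Whether free RNA or expression gave those UMIs was not tested. A cell could therefore be left out on a stray UMI of these genes, and the number so lost was not measured.

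Of the 756 cells with both GATA factors, Pf4, a platelet chemokine, met the exclusion in 317 and Car1, an early erythroid carbonic anhydrase, in 276. Klf1 did so in 202, the basophil and mast genes Mcpt8, Ms4a2 and Prss34 in 128, 118 and 85, and Mpo in 102. A single criterion removed 293 cells, 182 of them through Pf4 and 54 through Car1. Cells with both GATA factors were thus most often on the megakaryocyte or erythroid side of the limits, and the members were the remainder with neither mark.

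The share of kept cells that were members was 0.651% (95% exact binomial interval 0.422 to 0.959) and 0.497% (0.311 to 0.751) in Idh1-R132H 1 and 2. It was 0.688% (0.468 to 0.976) and 0.399% (0.219 to 0.669) in Idh1-WT 1 and 2. These intervals cover counting error only. The groups overlapped, with means of 0.574% ± 0.109 in Idh1-R132H and 0.544% ± 0.204 in Idh1-WT (SD, n = 2 each), a difference of 0.0297 percentage points (exact permutation test, two-sided, p = 1.0, where the smallest possible p is 0.33). Members made up 15.4% and 11.9% of the cells with both GATA factors in Idh1-R132H 1 and 2, and 12.9% and 8.28% in Idh1-WT 1 and 2. This share averaged 13.7% ± 2.50 in Idh1-R132H and 10.6% ± 3.28 in Idh1-WT (SD, n = 2 each, exact permutation p = 0.667), again with overlap. No difference in frequency was detectable at this depth, and the direction of the share of kept cells turned under several settings. Equal cell numbers of 3 sorted populations were pooled, which can set both shares.

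**Figure D1:**
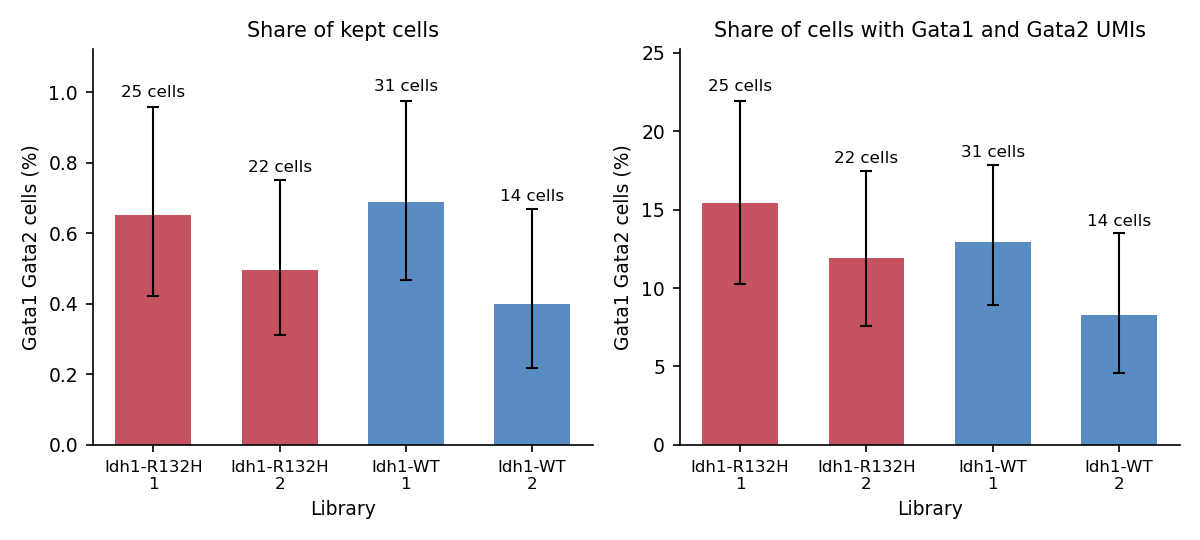
Share of Gata1 Gata2 cells (%) among kept cells (left) and among cells with UMIs of both Gata1 and Gata2 (right), 1 bar per library, with 95% exact binomial intervals and the number of cells above each bar. The intervals of the Idh1-R132H and Idh1-WT libraries overlap in both panels.

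The 2 genes that name these cells were both used to choose them, so the name was checked against other markers of the pre-megakaryocyte-erythroid progenitor. Among other markers, its sorting phenotype is positive for cKit and CD150 (Slamf1) and negative for Sca1 (Ly6a) and CD16/32 (Fcgr3). CD105 (Eng) marks its later form. The CD41 gene Itga2b was not part of this check, which is therefore incomplete. It was seen in 47 of 92 members and, after thinning to 5000 UMIs, in 29.4% of members and 1.86% of B-like cells. Kit was detected in 47 of 92 cells, Eng in 26 and Slamf1 in 3. After thinning to 5000 UMIs, Kit was seen in 27.1% of members, 17.7% of B-like cells and 12.7% of Mpo-high cells, the 1705 cells with at least 100 Mpo UMIs per 10,000 and an Elane UMI that lacked the GATA pair. By the same measure, Eng was seen in 10.6% of members, 10.7% of B-like cells and 4.67% of Mpo-high cells. Ly6a was detected in 26 cells at 50.3 CPM, against 193 CPM in Hlf Procr Mecom cells, the immature cells with UMIs of at least 2 of these 3 stem cell genes and none of Gata1 (2279 cells). Fcgr3 was detected in 8 cells at 14.1 CPM, against 334 CPM in Mpo-high cells. After thinning, Ly6a was seen in 18.8% of members and 20.9% of B-like cells, and Fcgr3 in 5.88% and 28.4%. Ly6a and Eng in members were thus at the share of B-like cells but above that of Mpo-high cells, which was 2.57% for Ly6a. Whether either share exceeded free RNA depended on the class used for comparison, and Slamf1 was too sparse to read. After thinning, Kit was seen in 31.8% of Hlf Procr Mecom cells and 25.5% of Klf1 Car1 cells (defined below), and Fcgr3 in 5.27% and 4.67%. Ly6a was seen in 55.3% and 2.20% of the same classes. Kit and Fcgr3 thus did not set members apart from these neighbouring classes. The cells are therefore called by their rule and given no cell type name. All comparisons of levels with other cells describe cells that the rule set apart and carry no test.

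Apart from the GATA factors themselves, the genes with the highest ratio of level in Gata1 Gata2 cells over the other kept cells mixed megakaryocyte, early progenitor and chromatin genes. The ranking covered the 1888 of 27998 features with at least 50 CPM in the members of every library. Apoe, the lipid carrier apolipoprotein E (chromosome 7, 19696109 to 19699188, minus strand), led with a ratio of 4.94. It was followed by Itga2b, the αIIb integrin CD41 (chromosome 11, 102453297 to 102470122, minus strand), with 4.77, and by the linker histone H1fx with 4.24. Further down stood Ddah2 (3.67), Smim5 (3.55), the linker histone H1f0 (3.50), the adaptor Lat (3.31), Nupr1 (3.26) and the mucin Muc13 (2.91). Car2 (2.73), Nrgn (2.72) and the stem cell factor Meis1 (2.68) also stood among the first 20.

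Erythroid priming in these cells rested on 1 gene. Of the 37 measured genes on the erythroid list, 24 had a UMI in at least 1 member, 10 in at least 10% of members and 1 in at least 50%. That gene was Car2, a carbonic anhydrase of red cells and their precursors (chromosome 3, 14886273 to 14900770, plus strand), found in 90 of 92 cells and holding 78.9% of the list's UMIs. Car2 stood at 1386 and 1305 CPM in Idh1-R132H 1 and 2 and at 1572 and 1456 CPM in Idh1-WT 1 and 2, on average 1430 CPM in members against 3103 CPM in Klf1 Car1 cells and 1014 CPM in Hlf Procr Mecom cells. Klf1 Car1 cells are the 379 cells with at least 2 Klf1 UMIs and 1 Car1 UMI, and stand here for cells further along the erythroid branch.

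Genes of later erythroid stages were low or missing in members. Blvrb, a biliverdin reductase, averaged 91.0 CPM in members, 823 CPM in Klf1 Car1 cells and 62.7 CPM in Hlf Procr Mecom cells. After thinning to 5000 UMIs, which 85 members and 215 B-like cells were deep enough for, it was seen in 25.9% of members and 27.0% of B-like cells, but in 9.02% of Mpo-high cells, so whether its share in members exceeded free RNA depended on the class used for comparison. Aqp1, a water channel, averaged 27.0 CPM in members and 313 CPM in Klf1 Car1 cells. The erythropoietin receptor Epor was detected in 10 members and averaged 11.2 CPM, against 76.7 CPM in Klf1 Car1 cells and 2.06 CPM in Hlf Procr Mecom cells. The transferrin receptor Tfrc was seen in 3 members, the globin gene Hbb-bs in 2 and the blood group gene Ermap in 1. Rhd and Hba-a1 had no UMI among 912163 UMIs of members. A few erythroid genes did stand well above the immature cells. Icam4, an adhesion molecule of red cells, averaged 57.3 CPM in members, 81.9 CPM in Klf1 Car1 cells and 14.5 CPM in Hlf Procr Mecom cells, and the sphingosine-1-phosphate transporter Mfsd2b averaged 34.4, 68.3 and 1.71 CPM in the same 3 classes. Hemgn (haemogen) was the gene closest to its level in Klf1 Car1 cells, with 48.7 CPM in members, 49.5 CPM in Klf1 Car1 cells and 24.8 CPM in Hlf Procr Mecom cells.

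Of the haem synthesis list, 13 of 14 genes had a UMI in members. The list summed to 5.63 UMIs per 10,000 in members, 16.2 in Klf1 Car1 cells and 4.56 in Hlf Procr Mecom cells, but 6.35 in B-like cells, 9.68 in Mpo-high cells and 6.85 over all other kept cells. The summed list was therefore not higher in members than in these unrelated cells. Tmem14c, a mitochondrial carrier of haem precursors, was seen in 69 cells, Urod in 53 and Alad in 52. After thinning, Tmem14c was seen in 62.4% of members, 60% of B-like cells and 68.6% of Mpo-high cells, and Urod in 28.2%, 25.6% and 23.4%, so neither share stood apart from cells outside the lineage. Alad was seen in 34.1% of members, 21.9% of B-like cells and 16.2% of Mpo-high cells. Alas1, the housekeeping first enzyme, was seen after thinning in 20% of members, 34.4% of B-like cells and 84.6% of Mpo-high cells. The erythroid first enzyme Alas2 was seen in no member.

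Megakaryocyte priming was spread over more genes. Of 39 measured genes, 33 had a UMI in members, 20 in at least 10% of them and 7 in at least 50%. They included the regulator of G protein signalling Rgs18 (85 cells), the tetraspanin Cd9 (77), the calmodulin binder Nrgn (73), the G protein subunit Gng11 (58), the Tie2 ligand Angpt1 (50) and Itga2b (47). After thinning to 5000 UMIs, Itga2b was seen in 29.4% of members and 1.86% of B-like cells, Cd9 in 74.1% and 31.6%, and Gp9 in 24.7% and 3.26%. These 3 genes were seen more often in members than in B-like cells.

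Rgs18, Itga2b, Cd9 and Gp9 had levels between those of the immature cells and those of the cells that the Pf4 limit removed. Rgs18 stood at 274 and 380 CPM in Idh1-R132H 1 and 2 and at 341 and 415 CPM in Idh1-WT 1 and 2. Its mean was 352 CPM in members, against 451 CPM in the 182 cells left out for Pf4 alone, 244 CPM in Hlf Procr Mecom cells and 62.0 CPM in Klf1 Car1 cells. Itga2b stood at 95.3 and 67.0 CPM in Idh1-R132H 1 and 2 and at 76.5 and 155 CPM in Idh1-WT 1 and 2, with a mean of 98.4 CPM in members, 228 CPM in the Pf4 cells, 20.05 CPM in Hlf Procr Mecom cells and 7.87 CPM in Klf1 Car1 cells. In both genes every library had members above its Klf1 Car1 cells. Cd9 averaged 289 CPM in members and 641 CPM in the Pf4 cells, and the platelet glycoprotein gene Gp9 71.5 and 156 CPM. Late platelet genes were sparse. Vwf (von Willebrand factor) was seen in 5 members, the adhesion receptor Selp in 9, and the chemokine gene Ppbp and the receptor Clec1b in 1 cell each.

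**Figure D2:**
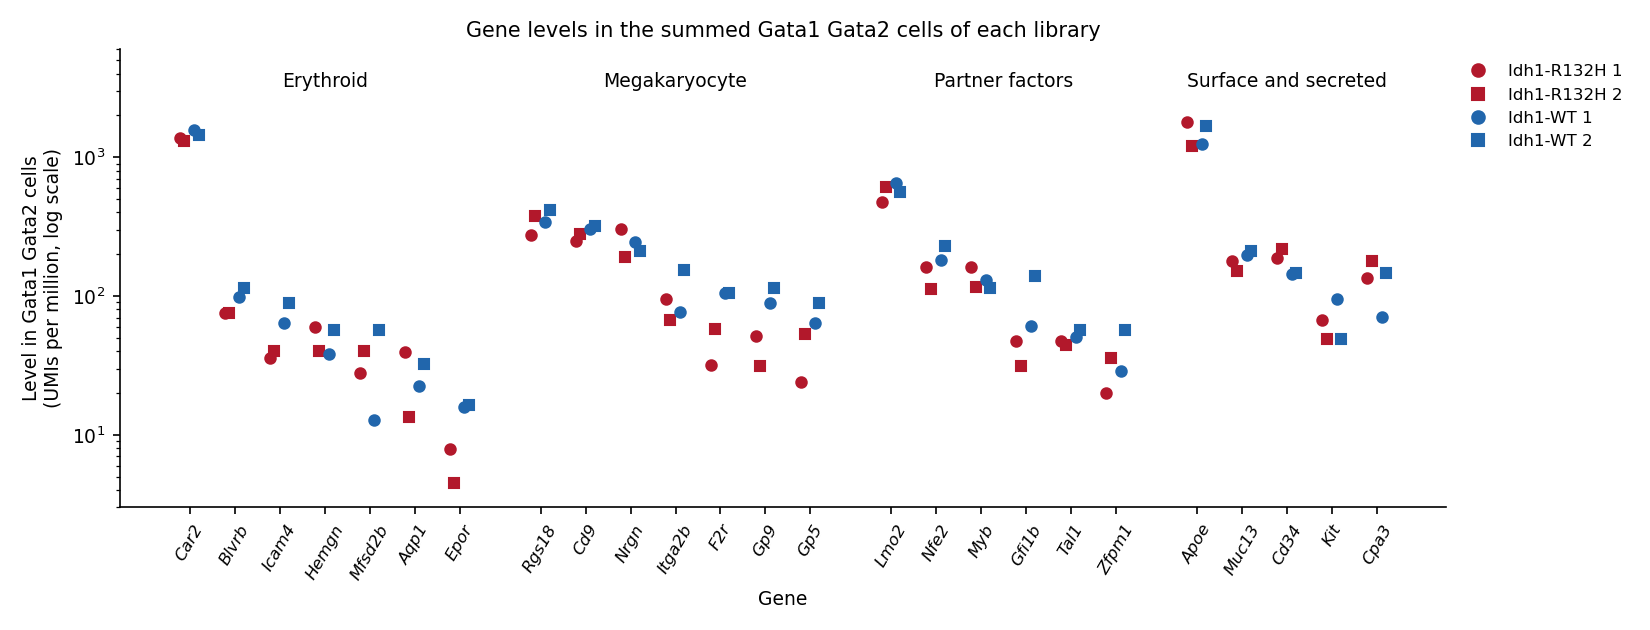
Level of 25 genes in the summed Gata1 Gata2 cells of each library (CPM, log scale), in groups of erythroid, megakaryocyte, partner factor and surface or secreted genes. Red points are the 2 Idh1-R132H libraries and blue points the 2 Idh1-WT libraries. The 2 Idh1-R132H points lie below both Idh1-WT points for F2r and Gp9, and the points of Rgs18, Itga2b and Apoe interleave.

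The lists set Gata1 Gata2 cells beside their neighbours. The erythroid list summed to 18.3 ± 1.77 UMIs per 10,000 in members (SD over 4 libraries), 71.1 in Klf1 Car1 cells and 12.8 in Hlf Procr Mecom cells. Without Car2 the same 3 classes had 3.99, 40.1 and 2.65. The Pf4 cells had 17.0 with Car2 and 5.27 without it, and all other kept cells 3.56 without it, so the erythroid level of members was not particular to them. The megakaryocyte list summed to 18.8 ± 1.81 in members, 36.5 in the Pf4 cells, 12.8 in Hlf Procr Mecom cells and 2.91 in Klf1 Car1 cells. Members thus had more of both lists than the immature cells, less of the erythroid list than Klf1 Car1 cells, and less of the megakaryocyte list than the Pf4 cells. The stem and multipotent list stood at 18.8 in members, 32.8 in Hlf Procr Mecom cells and 5.75 in Klf1 Car1 cells. The basophil and mast list stood at 5.13 in members and at 35.3 in the 45 cells left out for Ms4a2, Prss34 or Mcpt8 alone, whose libraries ranged from 13.3 to 86.4 with Idh1-WT 2 the highest.

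**Figure D3:**
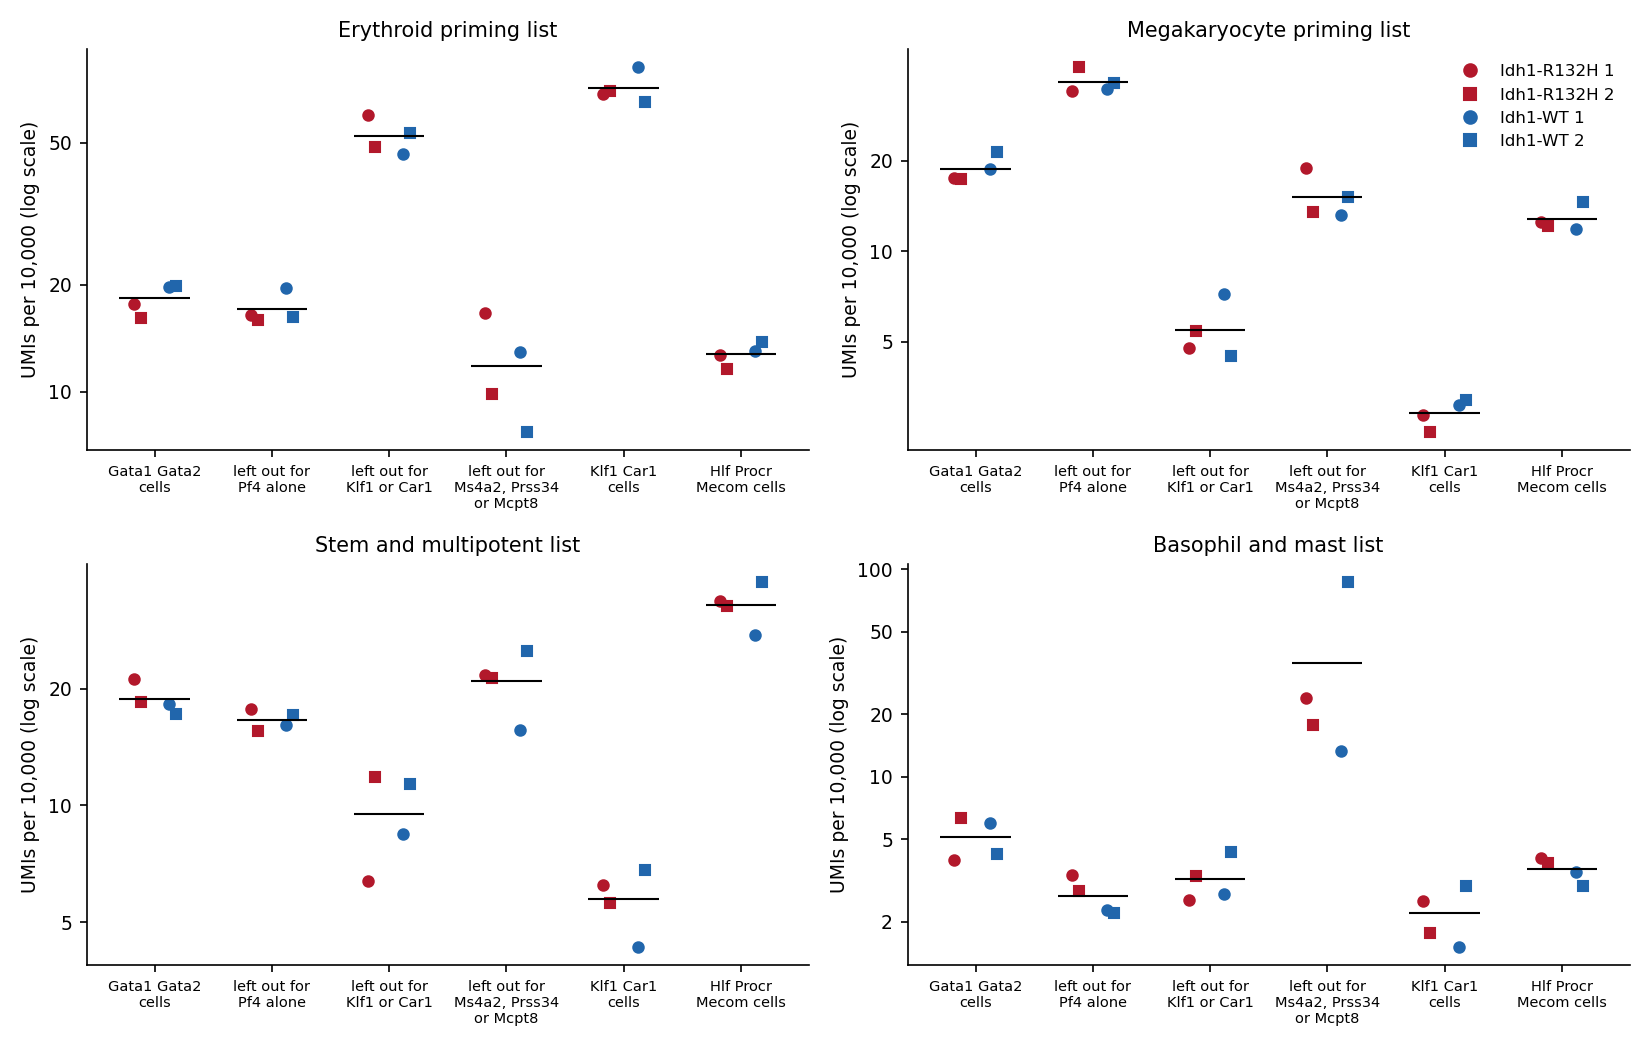
Summed UMIs per 10,000 (log scale) of 4 gene lists in Gata1 Gata2 cells, in cells with both GATA factors that were left out for Pf4, for Klf1 or Car1, or for basophil genes alone, in Klf1 Car1 cells and in Hlf Procr Mecom cells. Points are libraries (red Idh1-R132H, blue Idh1-WT) and bars their mean; Gata1 Gata2 cells lie near 18 on both the erythroid and the megakaryocyte list, while each branch class is high on 1 of them.

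Within single cells, UMIs of the erythroid and megakaryocyte lists occurred side by side. All 92 members had UMIs of both lists, but 9 had no erythroid UMI other than those of Car2. After thinning to 5000 UMIs both were still present in 22 of 22 and 21 of 21 members in Idh1-R132H 1 and 2, and in 28 of 28 and 13 of 14 in Idh1-WT 1 and 2 (100% in Idh1-R132H and 96.4% ± 5.05 in Idh1-WT, SD, n = 2 each, exact permutation p = 1.0). This joint presence was not peculiar to them, since 96.6% to 98.2% of Hlf Procr Mecom cells also had both, as had 60.2% to 75% of Klf1 Car1 cells. B-like cells, which should have neither program, had both in 57.7% to 65.2%, and Mpo-high cells in 31.6% to 41.6%. The share with at least 1 UMI of each list was therefore well above 0 in cells outside the lineage, by an amount that differed between them.

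The amounts told more than the presence. Per cell, the erythroid list had a median of 15.9 UMIs per 10,000 (1.16 to 46.4) and the megakaryocyte list one of 17.0 (4.65 to 38.7). The erythroid list had more UMIs in 39 cells, the megakaryocyte list in 48, and they tied in 5. The log2 ratio of erythroid over megakaryocyte UMIs, each with 1 added, had a median of −0.09 with quartiles of −0.65 and 0.41. In 78 cells the 2 lists lay within 2-fold of each other, 3 cells leaned over 2-fold to the erythroid side and 11 to the megakaryocyte side. With Car2 counted, the balance was thus a single broad range around equality. Without Car2 the erythroid median was 3.36 UMIs per 10,000, and 9 members had no erythroid UMI, so the near-equality rested on Car2. The zero point of the ratio depends on which genes are listed, so the ratio ranks cells and does not place them on a scale of commitment.

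Cells rich in one list tended to be rich in the other. Across the 92 cells Spearman's rho between the erythroid and the megakaryocyte level was 0.41, and it was 0.46 and 0.45 in Idh1-R132H 1 and 2 and 0.33 and 0.42 in Idh1-WT 1 and 2. Without Car2 it was 0.38 over all members, with 0.32 and 0.39 in Idh1-R132H 1 and 2 and 0.40 and 0.15 in Idh1-WT 1 and 2. The erythroid level had a rho of −0.26 with the basophil and mast list. Cells of 1 library share its free RNA, and every value is a share of the same total, so these correlations describe the cells and are not tests.

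**Figure D4:**
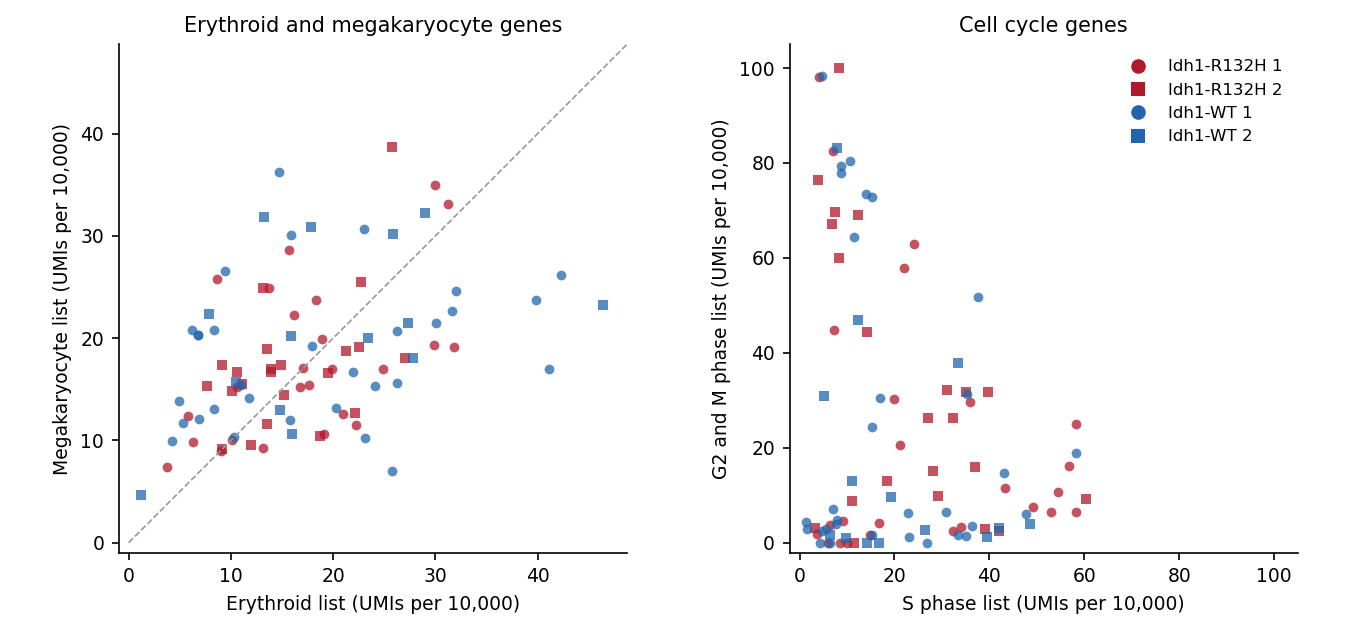
Gata1 Gata2 cells by the summed level of the erythroid list and the megakaryocyte list (left, UMIs per 10,000, with a dashed line of equality) and of the S phase list and the G2 and M phase list (right). Each point is 1 of 92 cells, red for Idh1-R132H and blue for Idh1-WT; on the left the cells of all libraries scatter around equality with a Spearman rho of 0.41, and on the right the cells highest in G2 and M genes are low in S phase genes while many cells are low in both (rho −0.04).

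All 22 genes of the list of GATA partners and lineage factors had UMIs in at least 10% of members, but not all stood above other cells. After thinning, Gfi1b was seen in 25.9% of members, 3.72% of B-like cells and 0.724% of Mpo-high cells, Nfe2 in 60%, 23.3% and 25.4%, and Lmo2 in 91.8%, 61.9% and 58.6%. Zbtb7a (21.2% of members and 21.9% of B-like cells), Myb (45.9% and 48.8%), Runx1 (17.6% and 15.3%) and Fli1 (25.9% and 20.9%) were at or near the share of B-like cells. In Mpo-high cells the shares of these genes were 13.4%, 63.6%, 12.1% and 23.0%, so Zbtb7a and Runx1 stood above that class. Lmo2, the LIM-domain bridge of the GATA complex, was seen in 87 cells at 576 CPM. Nfe2, the bZIP factor of globin and platelet genes, was seen in 75 cells, and its mean of 171 CPM in members compared with 71.8 CPM in Klf1 Car1 cells and 147 CPM in Hlf Procr Mecom cells. The bHLH factor Lyl1 was seen in 75 cells and its relative Tal1 in 37 (50.1 CPM). Gfi1b, a repressor needed in both branches, was seen in 33 cells, with 69.5 CPM in members, 97.3 CPM in Klf1 Car1 cells and 22.8 CPM in Hlf Procr Mecom cells. Zfpm1 was seen in 23 cells at 35.3 CPM, against 28.1 CPM in Klf1 Car1 cells and 14.3 CPM in Hlf Procr Mecom cells. Fli1, the ETS factor of megakaryocytes, was seen in 47 cells at 73.1 CPM, against 12.04 CPM in Klf1 Car1 cells, 65.0 CPM in Hlf Procr Mecom cells and 114 CPM in the Pf4 cells. Mef2c, a further factor of megakaryocytes, took the same order with 217 CPM in members, 36.1 CPM in Klf1 Car1 cells, 160 CPM in Hlf Procr Mecom cells and 328 CPM in the Pf4 cells. Gfi1b and Zfpm1 therefore resembled the later classes, and Fli1 and Mef2c were low only in Klf1 Car1 cells among these classes.

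Among surface and secreted products, Apoe was seen in 88 cells. It stood at 1807 and 1211 CPM in Idh1-R132H 1 and 2 and at 1237 and 1692 CPM in Idh1-WT 1 and 2, with a mean of 1487 CPM in members against 656 CPM in Klf1 Car1 cells, 333 CPM in Hlf Procr Mecom cells and 1123 CPM in the Pf4 cells. Apoe was higher in members than in Klf1 Car1 cells and in Hlf Procr Mecom cells in every library, and its genotype groups overlapped. The 45 cells left out for Ms4a2, Prss34 or Mcpt8 alone averaged 1460 CPM, so a high Apoe level was not particular to members. Muc13 was seen in 72 cells at 185 CPM, against 47.3 CPM in Klf1 Car1 cells and 111 CPM in Hlf Procr Mecom cells. Cd34, the sialomucin of early progenitors, was seen in 61 cells, with 174 CPM in members, 276 CPM in Hlf Procr Mecom cells, 80.6 CPM in the Pf4 cells and 15.3 CPM in Klf1 Car1 cells. Cd34 thus lay below the immature cells and above both branches.

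Stem cell genes separated into kept and reduced ones. Meis1 averaged 142 CPM in members and 134 CPM in Hlf Procr Mecom cells, and Mycn 63.2 and 64.8 CPM. Ifitm1 averaged 408 CPM in members and 884 CPM in Hlf Procr Mecom cells. Hlf, Mecom and Procr were seen in 29, 21 and 5 members, but they chose the cells of the other class and cannot be compared with it. In Klf1 Car1 cells Meis1 and Mycn stood at 12.2 and 3.46 CPM.

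The values on either side of each limit show how the rule cut through the population, as a description. The 15 members with 1 Klf1 UMI had 23.4 erythroid and 21.3 megakaryocyte UMIs per 10,000, against 17.31 and 17.96 in the 77 members with none. The 5 cells left out for exactly 2 Klf1 UMIs and nothing else had 16.6 and 12.04. The 43 cells left out for a single Pf4 UMI had a megakaryocyte level of 18.1, close to the 18.5 of all members summed, while the 139 cells with 2 or more Pf4 UMIs had 40.9. The 18 cells left out for a single Car1 UMI had 14.9 erythroid and 16.2 megakaryocyte UMIs per 10,000, and the 36 with 2 or more had 23.4 and 9.65. On the megakaryocyte list, cells with 1 Pf4 UMI were thus near members and cells with more were not, while on the erythroid list both were near the 18.2 of members, with 16.7 and 17.5. The cells with 1 Car1 UMI had 10.04 basophil and mast UMIs per 10,000, against 5.28 in members. The 11 cells left out for 2 or more Ms4a2 UMIs had 32.3 basophil and mast UMIs per 10,000. The 24 members with 5 to 10 Mpo UMIs per 10,000 had a granulocyte-monocyte list level of 24.99, and the 4 cells just outside, with 10 to 20, had 61.8. On the other side, 55 cells with Gata1 and no Gata2 that met every other limit had 11.74 erythroid and 11.55 megakaryocyte UMIs per 10,000, and 1244 cells with Gata2 and no Gata1 had 14.0 and 13.9.

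Markers of other cell types were few but not absent. Of the 8 measured T and NK genes 3 were detected, and Cd3d, Cd3e and Cd3g were at 0. Nkg7, a granule gene of cytotoxic cells, held 98.0% of that list's UMIs and was seen in 80 members. The list stood at 4.61 and 5.67 UMIs per 10,000 in Idh1-R132H 1 and 2 and at 4.75 and 5.37 in Idh1-WT 1 and 2. C1qa, C1qb and Adgre1 were at 0 among the macrophage genes. The granulocyte-monocyte list stood at 25 in members, against 471 in Mpo-high cells and 172 in B-like cells. Basophil and mast genes were concentrated in some members. The mast cell protease Cpa3 was seen in 32 cells and the IgE receptor chain Fcer1a in 9, and after thinning Cpa3 was seen in 25.9% of members and 6.05% of B-like cells. A single cell of Idh1-WT 1 held 60 UMIs of the basophil and mast list among its 4271 UMIs, although it had none of the 3 basophil genes the rule excludes. The mature neutrophil list stood at 11.1 and 164 UMIs per 10,000 in Idh1-R132H 1 and 2 and at 17.2 and 16.6 in Idh1-WT 1 and 2. The high value of Idh1-R132H 2 came with its 2 S100a8-rich cells, and its median member had 19.1.

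Cell cycle genes varied widely among members. S phase genes exceeded 20 UMIs per 10,000 in 41 of 92 cells (13 of 25 and 11 of 22 in Idh1-R132H 1 and 2, 12 of 31 and 5 of 14 in Idh1-WT 1 and 2). G2 and M phase genes did so in 36 cells (9 of 25 and 12 of 22 in Idh1-R132H 1 and 2, 11 of 31 and 4 of 14 in Idh1-WT 1 and 2). These limits divide a range and are not phase calls, and 14 cells for S phase and 7 for G2 and M phase lay between 15 and 25. Over the cells, the stem and multipotent list had a Spearman rho of −0.39 with the S phase list. The S phase list averaged 23.1 in members and 18.3 in Hlf Procr Mecom cells, and the G2 and M phase list 29.0 and 20.2.

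The genotype comparison within Gata1 Gata2 cells was not used by the rule. No gene passed, with 0 of 3117 genes tested at an adjusted p below 0.05 (percent called 0) by edgeR's quasi-likelihood test on UMIs summed per library with Benjamini-Hochberg adjustment. At an unadjusted p below 0.05 there were 142 genes (4.56%). DESeq2 also called 0, with 9 at an unadjusted p below 0.05. On data simulated from these libraries, the test found 45.2% of genes changed by 1 on the log2 scale and 89.9% of those changed by 2, so changes of 1 or less could be missed. Fits that left out a library assumed that the lone library of a group varied like the others. Leaving out Idh1-R132H 1 gave log2 differences of 3.62 for S100a8, 3.27 for S100a9 and 2.95 for Ngp, all genes of the mature neutrophil list. The lone Idh1-R132H library was then the one with the 2 S100a8-rich members. Fewer cells of a type and less RNA per cell cannot be told apart for a class share, but the sums here are scaled to each library's total. In all, 1070 of the tested genes (34.3%) had libraries that did not overlap between the groups, 478 higher and 592 lower in Idh1-R132H. Counts of genes without overlap below are to be read against that share.

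None of the 4 erythroid list genes with enough counts passed. Car2 differed by −0.15 (SE 0.10) on the log2 scale, with both Idh1-R132H values given above below both Idh1-WT values, but by 0.0407 the other way without cells that had a Klf1 UMI. Icam4 stood at 35.7 and 40.2 CPM in Idh1-R132H 1 and 2 and at 63.8 and 89.5 CPM in Idh1-WT 1 and 2, a log2 difference of −0.89 (SE 0.40, edgeR adjusted p = 0.989). Blvrb stood at 75.5 and 76.0 CPM in Idh1-R132H 1 and 2 and at 98.8 and 114 CPM in Idh1-WT 1 and 2, a log2 difference of −0.43 (SE 0.31). Groups did not overlap for these 3 genes, all with lower values in Idh1-R132H, whereas Hemgn overlapped. The share without overlap was 34.3% over all genes tested. The median log2 difference of the 4 genes was −0.29, beside 0.00 for all genes tested.

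Of the 11 megakaryocyte genes tested, 5 were higher and 6 lower in Idh1-R132H, with a median of −0.16, and none passed. Libraries did not overlap in 5 of the 11, 1 higher and 4 lower, beside 34.3% of all genes tested. Gp9 (chromosome 6, 87778072 to 87779768, plus strand) stood at 51.6 and 31.3 CPM in Idh1-R132H 1 and 2 and at 89.3 and 114 CPM in Idh1-WT 1 and 2, a log2 difference of −1.17 (SE 0.37). Its edgeR p was 0.00614 unadjusted and 0.989 adjusted. The thrombin receptor F2r stood at 31.8 and 58.1 CPM in Idh1-R132H 1 and 2 and at 105 and 106 CPM in Idh1-WT 1 and 2, a log2 difference of −1.22 (SE 0.36), which was −0.80 without Idh1-R132H 1. These were the largest differences of the list in either direction, and both rest on few UMIs (20 and 21 in Idh1-R132H, 42 and 46 in Idh1-WT). Gp5 had a log2 difference of −0.88 (−0.36 without Idh1-R132H 1), Itga2b of −0.28 and Cd9 of −0.20. Itga2b and Cd9 turned to 0.27 and 0.0556 without cells that had a Klf1 UMI. The list's median turned positive without cells that had a Klf1 UMI (0.06) and without Idh1-WT 2 (0.03), so no direction is given for the list.

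The erythroid-to-megakaryocyte ratio of summed list UMIs was 1.00 and 0.925 in Idh1-R132H 1 and 2 and 1.04 and 0.927 in Idh1-WT 1 and 2. On the log2 scale it averaged −0.05 ± 0.08 in Idh1-R132H and −0.02 ± 0.12 in Idh1-WT (SD, n = 2 each), a difference of −0.03 that lay within the spread between libraries. The erythroid list had 17.6 and 16.1 UMIs per 10,000 in Idh1-R132H 1 and 2 against 19.7 and 19.8 in Idh1-WT 1 and 2. The megakaryocyte list had 17.6 and 17.4 in Idh1-R132H 1 and 2 against 18.8 and 21.3 in Idh1-WT 1 and 2. The groups did not overlap on either list's summed level, but no direction is given for the megakaryocyte list, for the reason above. A shift of the cells towards either branch was not detectable by this ratio. Car2 holds most of the erythroid list's UMIs, so the ratio is largely one of Car2 over the megakaryocyte list. No ratio without Car2 was compared between the genotypes.

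GATA partner and lineage factors had 5 genes higher and 13 lower in Idh1-R132H among 18 tested, with a median of −0.19, and none passed. The median stayed negative in all 19 other settings run (−0.33 to −0.09). Among these, a UMI minimum of 1000, at most 5% mitochondrial UMIs and removal of shallower copies of shared barcodes kept the same members. Those settings could not change the result. Zbtb7a, the repressor LRF that acts in erythroid maturation (chromosome 10, 81135220 to 81152995, plus strand), stood at 35.7 and 17.9 CPM in Idh1-R132H 1 and 2 and at 82.9 and 81.4 CPM in Idh1-WT 1 and 2. Its log2 difference of −1.55 (SE 0.43, edgeR adjusted p = 0.989) was the largest on this list but rests on few UMIs. After thinning, Zbtb7a was seen in 21.2% of members, 21.9% of B-like cells and 13.4% of Mpo-high cells. Gfi1b stood at 47.7 and 31.3 CPM in Idh1-R132H 1 and 2 and at 60.6 and 138 CPM in Idh1-WT 1 and 2, a log2 difference of −1.04 (SE 0.45), which was −0.58 without Idh1-WT 2 and −1.74 without Idh1-WT 1. Nfe2 stood at 163 and 112 CPM in Idh1-R132H 1 and 2 and at 182 and 228 CPM in Idh1-WT 1 and 2, a log2 difference of −0.49 (SE 0.25), which was −0.27 without Idh1-R132H 2 and −0.76 without Idh1-R132H 1. In all 3 genes both Idh1-R132H values lay below both Idh1-WT values, as in 6 of the 18 genes tested on this list. Among all 3117 genes tested, 1070 (34.3%) had no overlap, 592 of them lower in Idh1-R132H. Lmo2 (−0.15), Tal1 (−0.17) and Myb (0.19) differed little. Zfpm1 had too few UMIs to be tested.

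**Figure D5:**
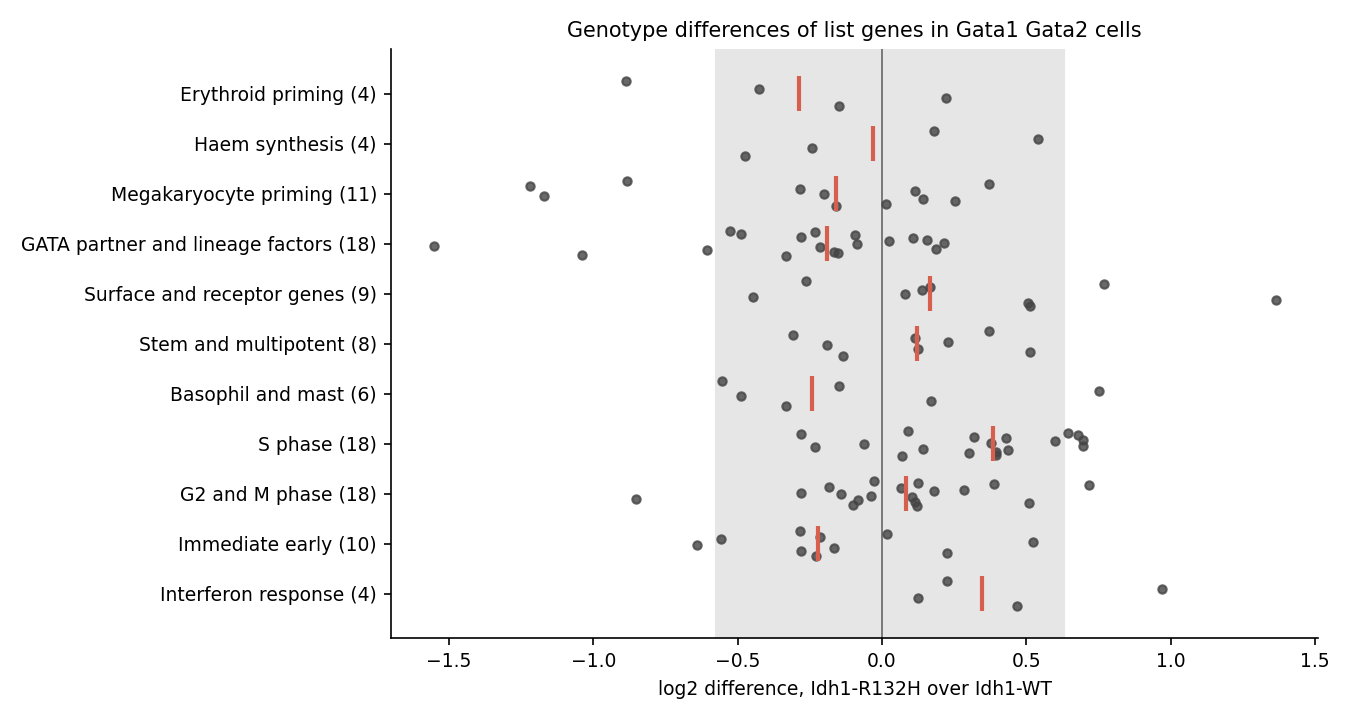
Log2 difference between Idh1-R132H and Idh1-WT in summed Gata1 Gata2 cells for the tested genes of 11 lists (number of genes in brackets), with the list median as a red bar. The grey band spans the 5th to 95th percentile of all 3117 genes tested (−0.58 to 0.63); no point passes the adjusted test, the S phase list lies mostly right of 0 and the GATA partner list mostly left.

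The 2 genes with the smallest p over all genes were Actb and Cirbp, both with an edgeR adjusted p of 0.599. Actb (β-actin) stood at 1946 and 1635 CPM in Idh1-R132H 1 and 2 and at 2497 and 2384 CPM in Idh1-WT 1 and 2, a log2 difference of −0.42 (SE 0.09). Cirbp, the cold-inducible RNA-binding protein (chromosome 10, 80165985 to 80172786, plus strand), stood at 191 and 174 CPM in Idh1-R132H 1 and 2 and at 76.5 and 89.5 CPM in Idh1-WT 1 and 2, a log2 difference of 1.20 (SE 0.27). Neither pair of groups overlapped.

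Surface genes ran 7 higher and 2 lower in Idh1-R132H among 9 tested, with a median of 0.17 that turned negative in 2 settings. Cd34 stood at 187 and 219 CPM in Idh1-R132H 1 and 2 and at 143 and 146 CPM in Idh1-WT 1 and 2, a log2 difference of 0.51 (SE 0.23). Itga4, the α4 integrin, had a log2 difference of 1.36 on 28 UMIs in Idh1-R132H and 10 in Idh1-WT, and the mucin gene Muc13 one of −0.26. None of these passed. Ifitm1 of the stem cell list had a log2 difference of 0.51 and Cpa3 one of 0.75, with overlapping groups in both. Leaving out Idh1-WT 1 gave 1.03 for Ifitm1, which then passed, and 0.13 for Cpa3. Ifitm1 was 0.25 without Idh1-WT 2 or without Idh1-R132H 1.

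S phase genes were the most one-sided of the larger lists, with 15 of 18 tested genes higher in Idh1-R132H. Their median of 0.39 stayed positive in all 19 other settings (0.14 to 0.60), some of which kept the same members, as given above. Libraries did not overlap in 7 of the 18 genes, all higher in Idh1-R132H. Among all 3117 genes tested, 1070 (34.3%) had no overlap, 478 of them higher. The helicase subunit gene Mcm7 stood at 242 and 179 CPM in Idh1-R132H 1 and 2 and at 153 and 89.5 CPM in Idh1-WT 1 and 2, a log2 difference of 0.70 (SE 0.26), which was 1.27 without Idh1-WT 1. Thymidylate synthase (Tyms) had a log2 difference of 0.44 and the sliding clamp Pcna one of 0.40 (0.17 without Idh1-WT 1). No gene of the list passed. The G2 and M phase list gave 10 higher and 8 lower, a median of 0.08, and both directions among its named genes, with 0.51 for Nusap1 and −0.85 for Aurka, where Aurka was −0.22 without Idh1-WT 1. Depth per member was higher in the Idh1-R132H libraries, as given above, and its part in these differences was not tested.

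Immediate early genes, which respond to handling, gave 3 higher and 7 lower of 10 tested, with log2 differences of −0.64 for Jund and −0.56 for Junb. The 4 interferon response genes tested were all higher, with 0.97 for Bst2. The maintenance methyltransferase gene Dnmt1 had a log2 difference of 0.88, which was 0.29 without Idh1-WT 1. Idh1 itself (chromosome 1, 65158616 to 65186500, minus strand) had 4 and 1 UMIs in the members of Idh1-R132H 1 and 2 and 6 and 2 UMIs in those of Idh1-WT 1 and 2, too few to test. A count of Idh1 transcripts does not tell the R132H allele from the wild-type one, so it does not check the labels. Idh2, the mitochondrial enzyme, was seen in 77 cells and differed by −0.03. None of these genes passed.

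Whether the genotype effect in Gata1 Gata2 cells differed from that in neighbouring cells was tested directly, with the library as a block. Against Klf1 Car1 cells the effect differed for 6 of 7399 genes (0.0811%) by edgeR's quasi-likelihood test with Benjamini-Hochberg adjustment, and for 0 by DESeq2 (340 and 29 at an unadjusted p below 0.05). Against Hlf Procr Mecom cells it differed for 1 of 10391 genes (0.00962%) by edgeR and for 0 by DESeq2 (385 and 52 at an unadjusted p below 0.05). The replication-dependent histone Hist1h2ap (chromosome 13, 21833026 to 21833507, minus strand) was called in both. It stood at 4214 and 6112 CPM in the members of Idh1-R132H 1 and 2 and at 3890 and 2620 CPM in those of Idh1-WT 1 and 2. In Klf1 Car1 cells it stood at 2864 and 3526 CPM in Idh1-R132H 1 and 2 and at 3726 and 2984 CPM in Idh1-WT 1 and 2. In Hlf Procr Mecom cells it stood at 3816 and 4785 CPM in Idh1-R132H 1 and 2 and at 4174 and 3011 CPM in Idh1-WT 1 and 2. The groups did not overlap in members and overlapped in both other classes. The difference of log2 effects was 0.75 (SE 0.08, adjusted p = 3.01e-16) against Klf1 Car1 cells and 0.46 (SE 0.09, adjusted p = 0.00453) against Hlf Procr Mecom cells. Within members alone Hist1h2ap did not pass (log2 difference 0.68, SE 0.39, adjusted p = 0.989 by edgeR). Histone genes of this family have near-identical copies, so its reads may be shared with others.

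The other genes called against Klf1 Car1 cells were the tubulins Tubb5 (difference of log2 effects 0.53) and Tuba1b (0.46), the mitotic kinase Pbk (1.32) and the G1 cyclin Ccnd2 (−1.13), and Mpo, which the rule bounds and from which nothing is read. Pbk stood at 222 and 206 CPM in the members of Idh1-R132H 1 and 2 and at 118 and 122 CPM in those of Idh1-WT 1 and 2, and at 62.1 and 68.4 CPM in the Klf1 Car1 cells of Idh1-R132H 1 and 2 and 97.2 and 77.0 CPM in those of Idh1-WT 1 and 2. Ccnd2 stood at 155 and 188 CPM in the members of Idh1-R132H 1 and 2 and at 252 and 293 CPM in those of Idh1-WT 1 and 2, and at 169 and 146 CPM in the Klf1 Car1 cells of Idh1-R132H 1 and 2 and 93.8 and 141 CPM in those of Idh1-WT 1 and 2. For both genes the libraries did not overlap between genotypes in either class, and the order was opposite in the 2 classes. Within members alone neither passed (edgeR adjusted p = 0.989 for each). Beside these calls, the S phase list of members stood at 28.3 and 23.2 UMIs per 10,000 in Idh1-R132H 1 and 2, against 20.3 and 20.7 in Idh1-WT 1 and 2. The G2 and M phase list had 24.9 and 36.4 in Idh1-R132H 1 and 2 against 32.4 and 22.5 in Idh1-WT 1 and 2, with overlap. The part of cycle phase in these calls was not tested. Over 16 other settings Hist1h2ap kept its call against Klf1 Car1 cells in 13, Tuba1b in 10, Tubb5 and Ccnd2 in 8 each and Pbk in 7. Hist1h2ap kept its call against Hlf Procr Mecom cells in 9. These counts include a UMI minimum of 1000 and the removal of the shallower copies of shared barcodes. Both gave the same values as the main fit, so no call could be lost there. Against Klf1 Car1 cells the count of calls was 10 without Idh1-WT 1 and 3 without Idh1-WT 2 or Idh1-R132H 2. Without Idh1-R132H 1, the difference of log2 effects was 2.61 for S100a8 and 2.00 for Ngp against Hlf Procr Mecom cells. Against Klf1 Car1 cells it was 2.06 for S100a8. Without Idh1-R132H 2, the difference for S100a8 was −1.14 against Hlf Procr Mecom cells and −1.40 against Klf1 Car1 cells. S100a8 and Ngp are neutrophil genes, and Idh1-R132H 2 held the 2 S100a8-rich members.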

How the data were processed

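The authors deposited 1 matrix of unnormalized UMI counts per library, with empty barcodes included. The submitters' processing notes name Cell Ranger 4.0.0, Seurat and the build GRCm38. Libraries were 10x 3′ libraries, so levels are not per length. Here cells were kept, chosen and summed per library in Python 3.11.15. Genotype effects were fitted with edgeR 4.0.16 in R 4.3.3 on these sums (TMM factors, filterByExpr, robust quasi-likelihood test, Benjamini-Hochberg threshold 0.05), with library as a block where cell classes were compared. DESeq2 1.42.0 was an alternative. Fits were tested on simulated data. Shares were compared by exact permutation. Intervals cover counting error only.

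The cells and gene lists were chosen with earlier results of these data known. Genotype genes named are, from each list, up to 4 tested genes of smallest p plus a fixed set of GATA partners, surface genes and Idh genes. Members are described by up to 8 genes per list by level and the 20 genes of highest ratio over other cells. All genes called between classes are named. Actb, Cirbp and genes at 0 or near 0 were named after their values were seen. Gene positions came from GENCODE vM21, which matched 27645 of 27998 features.

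Replicate numbers come from the labels, which tie them to no litter or day, and same-numbered libraries did not deviate together (r = −0.0885 over genes), so no pairing was used. Doublets were not removed, since Scrublet (scanpy 1.11.5) called 6 and 78 cells in Idh1-R132H 1 and 2 and 4 and 29 in Idh1-WT 1 and 2, too few to count as working in every library. Removing the highest scores was tried as an alternative, as were other cell limits, scalings, filters and left-out libraries. Alternatives on shared barcodes, S100a8-rich cells and Xist-carrying cells were added after seeing the data. Results for some genes are not reported here.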

Additional observations from a re-analysis of the deposited data

Results flagged for a closer look

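These results stood out because the genotype effect in Gata1 Gata2 cells differed from that in another class by a test of the difference itself (edgeR's quasi-likelihood test, adjusted p below 0.05). Against Klf1 Car1 cells the difference of log2 effects was 0.75 for Hist1h2ap, 0.53 for Tubb5, 0.46 for Tuba1b, −1.13 for Ccnd2 and 1.32 for Pbk. Against Hlf Procr Mecom cells it was 0.46 for Hist1h2ap. DESeq2 called none of them. In Idh1-R132H 1 and 2, 13 of 25 and 11 of 22 members exceeded 20 S phase UMIs per 10,000, against 12 of 31 and 5 of 14 in Idh1-WT 1 and 2. For G2 and M phase genes the counts were 9 of 25 and 12 of 22 in Idh1-R132H 1 and 2, against 11 of 31 and 4 of 14 in Idh1-WT 1 and 2, and the summed list levels overlapped. The part of cycle phase was not tested.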

How the results depend on the processing

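The difference in the share of kept cells turned negative without cells over 100 S100a8 UMIs (−0.00682 points), with no limit on Mpo (−0.00417) and with the rule applied at 5000 UMIs (−0.0916), and ran from −0.115 to 0.174 over left-out libraries. The share of the GATA pair ran from 0.745 to 5.38 points over left-out libraries. The log2 list ratio difference turned to 0.0131 without the highest doublet scores, 0.0677 in Xist-carrying cells alone and 0.0488 without Klf1 UMIs, and ran from −0.12 to 0.0544 over left-out libraries. The joint presence difference was 0 without thinning and 0 to 7.14 over left-out libraries. Genes called by genotype numbered 2 with no limit on Mpo, 2 in Xist-carrying cells alone, 1 with no filter on low counts, and 2 to 17 over left-out libraries. Against Klf1 Car1 cells there was 1 call without the highest doublet scores, 1 without shared barcodes, 0 with no limit on Mpo, 0 by DESeq2, and 3 to 10 over left-out libraries. Against Hlf Procr Mecom cells there were 0 without the highest doublet scores, without S100a8-rich cells, with library totals and by DESeq2, 2 with no limit on Mpo, and 1 to 12 over left-out libraries. Without Klf1 UMIs, Itga2b (0.27), Car2 (0.0407) and Cd9 (0.0556) changed sign, as did Cd9 in Xist-carrying cells (0.0230), and Itga2b ran from −0.88 to 0.11 over left-out libraries. The causes were not tested. With a replicate block 0 genes were called (112 at an unadjusted p below 0.05), and the numbers share no stated origin. Of 28 named genes, 25 never changed sign over 19 settings, some of which kept the same members. Without Idh1-R132H 1 the genes called included neutrophil genes such as S100a8, as given above. The 92 cells and 2 libraries per group limit what can be detected.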

Other observations

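With no limit on Mpo, 2 genes were called by genotype in the wider set of cells (edgeR's quasi-likelihood test), Gpi1 with a log2 difference of 0.84 and Lgals1 with −1.14. Among Xist-carrying cells alone Lyz2 (1.39) and Anxa1 (1.74) were called. These genes were chosen after their values were seen.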
